A study of Mus musculus with 20 samples.

Results

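The healthy kidney cortex of this study is represented by 8 control mice, numbered Control 1 to Control 8, out of 20 mice in all, and each mouse was 1 library. They were taken by their sample labels, and no measured value was used to choose them. All 8 were wild-type (label WT) C57BL/6 mice aged 8 weeks, and the treatment label of each reads mock. The series' design text counts mock and vehicle animals together as the controls, so which kind each mouse was cannot be told apart, and the labels give no sex. The other 12 mice had acute kidney injury and were used here only where stated. Total RNA came from renal cortical tissue, polyadenylated RNA was captured on beads, and stranded paired-end libraries were sequenced. The library identifiers of the controls fall into 2 ranges. Controls 1 to 4 share a range with the mice given ischemia-reperfusion injury, and Controls 5 to 8 share the other with the mice given rhabdomyolysis or cisplatin. That range is the only split of the controls that the labels give.

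The cortex is mostly proximal tubule, whose brush border takes back glucose, phosphate, amino acids and filtered protein and whose basal side secretes organic anions and cations. Downstream of it, the thick ascending limb of the loop of Henle and the distal convoluted tubule reabsorb salt, the connecting tubule handles calcium, and the collecting duct balances water, salt and acid through principal and intercalated cells. Filtration takes place in the glomerulus, where podocytes cover a fenestrated capillary endothelium. Healthy cortex also holds resident macrophages and dendritic cells, vascular smooth muscle, fibroblasts and the blood left in its vessels. In bulk tissue such as this, fewer cells of a type and less RNA per cell cannot be told apart.

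The deposited values are CPM, that is, reads scaled to an effective library size. Of the rows in the table, 6023 were used after 2 exact copies were removed. All of these genes had an injury group whose mean was 1.53-fold or more away from that of the controls, and genes that moved less in every injury were not analysed here. Reads in the table ranged from 3580410 in Control 5 to 5395629 in Control 3, and 3 reads corresponded to 0.387 to 0.494 CPM. A mean of at least 10 CPM over the 8 mice was reached by 3551 genes, and the descriptions of spread below use these.

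Before any gene is read, some libraries lie at the ends of a shared axis. On the first principal component of the 3551 genes, which carried 52.4% of the variance of log2(CPM + 1), Control 2 scored 17.02 and Control 3 scored 13.4, while Control 4 scored -13.1 and Control 6 scored -10.3. The other 4 mice lay between -5.16 and 5.94. Genes at the 2 ends of this component differed in transcript length. The genes with the top 10% of loadings, toward Control 2 and Control 3, had a median longest transcript of 1851 bases, those with the bottom 10% had 6075 bases, and all genes had 3228 bases. In Control 2 the genes with transcripts up to 1000 bases lay 0.27 above the 8-mouse mean on the log2 scale and those over 8000 bases lay 0.37 below it. Control 4 showed the reverse, at -0.11 and 0.24, and so did Control 6, at -0.18 and 0.19. To a lesser degree so did Control 1 (-0.17 and 0.09) and Control 8 (-0.06 and 0.09). After each mouse's trend over length was removed, the component still carried 40.4% of the variance and kept Control 2 (13.0) and Control 3 (10.0) at the end opposite Control 4 (-9.85). Whether RNA quality, library preparation or tissue sampling had a part in this axis was not tested. Counts of list members that were lowest or highest in a mouse are therefore given as deposited and with the length trend removed, each with the share of all genes.

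**Figure D1:**
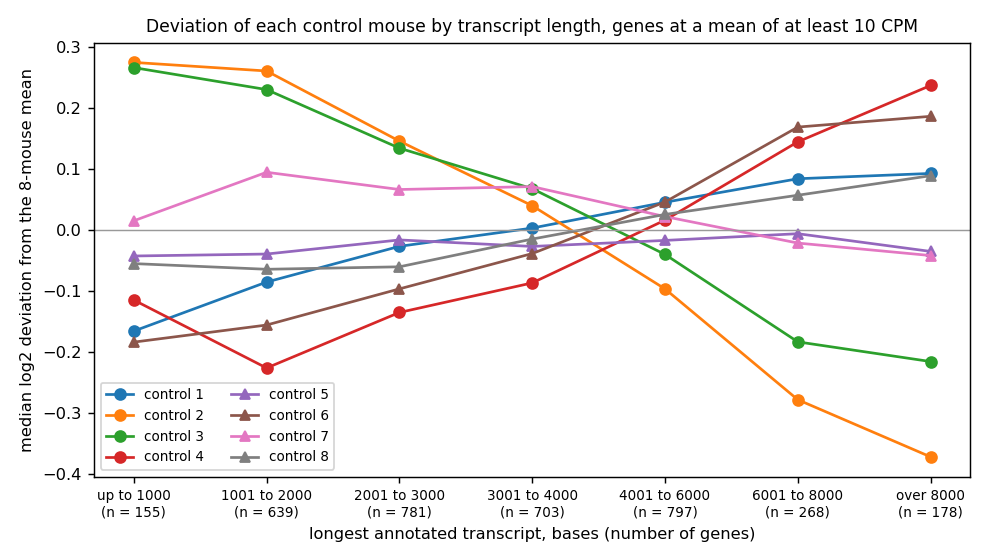
Median log2 deviation of each control mouse from the mean of the 8 mice (vertical axis) in 7 classes of transcript length in bases (horizontal axis, with the number of genes in each), for genes at a mean of at least 10 CPM. Circles are Controls 1 to 4 and triangles Controls 5 to 8. Control 2 and Control 3 run from high to low with length, and Control 4 and Control 6 run from low to high. Control 1 and Control 8 also run from low to high, less steeply.

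Proximal tubule genes had the highest median level of the nephron segments listed. The list had 44 of its 45 members in the table, 43 of them at a mean of at least 10 CPM, and together they summed to between 54538 CPM in Control 4 and 87198 CPM in Control 2, with a coefficient of variation (CV, the SD as a percent of the mean) of 15.6%. Per kilobase of longest transcript, the scale used here to compare genes, the median member stood at 181 CPM per kb, against 15.7 for all genes at 10 CPM or more. Kap, an androgen-regulated protein of the proximal tubule, led with 37369.8 CPM per kb. It was followed at a distance by Miox, the inositol oxygenase, at 2455 CPM per kb, by the phosphate cotransporter Slc34a1 at 1601 CPM per kb, and by the aminoacylase Acy3 at 1553 CPM per kb. The giant endocytic receptor Lrp2 (megalin), at 1007 ± 219 CPM (SD, n = 8), came to only 65.1 CPM per kb.

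The spread differed between proximal genes. Kap ranged from 16397 CPM in Control 4 over a median of 26599 to 35946 CPM in Control 2. The aspartic peptidase Napsa ranged from 1105 CPM in Control 4 over 2288 to 2913 CPM in Control 2. The organic anion transporter Slc22a6 (OAT1) ranged from 676 CPM in Control 4 over 1004 to 1359 CPM in Control 7. Control 4 was the lowest mouse in each of these genes. The glucose transporter Slc5a2 (SGLT2) was far steadier, at 592 ± 48.3 CPM (CV 8.15%), and so was the transcription factor Hnf4a, at 1212 ± 136 CPM (CV 11.2%), although Control 4 was again the lowest in each. Of the 43 members at 10 CPM or more, 30 were lowest in Control 4, where 29.0% of all genes were lowest, and 17 were highest in Control 7, where 13.4% of all genes were highest. With the length trend removed, 25 members were lowest in Control 4 (20.0% of all genes) and 17 were highest in Control 7 (12.5% of all genes). Under quantile normalization, which forces the same distribution on every mouse, the counts were 19 and 6, against 21.5% and 9.52% of all genes. Without Control 2 and Control 3 they were 31 and 26 of 43, against 32.1% and 36.2% of all genes. Lrp2 went another way, lowest in Control 2 at 702 CPM and highest in Control 7 at 1388 CPM.

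**Figure D2:**
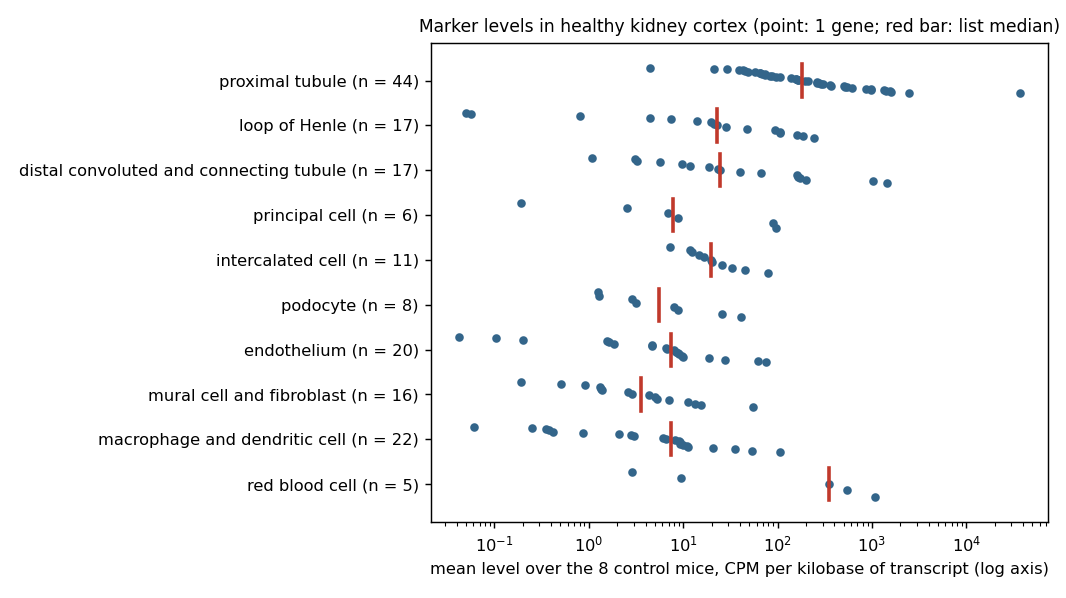
Mean level over the 8 control mice in CPM per kilobase of longest transcript (horizontal log axis) for each marker with a known length, by list (vertical axis, with the number of genes). Points are genes and red bars are list medians. Most proximal tubule genes lie above most genes of the later segments, the vessels and the immune cells.

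The later nephron segments were lower, and Control 4 was often their highest mouse, though not for principal cell genes. For the loop of Henle, a list of its thick and thin limbs and the macula densa, 17 of 25 list members were in the table and summed to between 2524 CPM in Control 2 and 3964 CPM in Control 4. The growth factor precursor Egf ranged from 674 CPM in Control 2 over 1216 to 1498 CPM in Control 4. The furosemide-sensitive cotransporter Slc12a1 (NKCC2) ranged from 534 CPM in Control 3 over 750.3 to 1059 CPM in Control 4. Of the 14 loop members at 10 CPM or more, 7 were highest in Control 4 (11.97% of all genes), and 8 with the length trend removed (17.3% of all genes).

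Distal convoluted and connecting tubule genes showed the same mouse more sharply. The 17 members in the table summed to between 6799 and 7727 CPM in 7 mice and to 8816 CPM in Control 4. The thiazide-sensitive cotransporter Slc12a3 (NCC) ranged from 499.9 CPM in Control 2 over 647 to 915 CPM in Control 4. The sodium-calcium exchanger Slc8a1 ranged from 111 CPM in Control 5 over 157 to 341 CPM in Control 4, and the next highest mouse had 206 CPM. The magnesium channel Trpm6 stood at 39.3 CPM in Control 4 against 15.3 to 23.1 CPM in the others. Klhl3, an adaptor that targets WNK kinases for degradation, stood at 36.5 CPM in Control 4 with the others at up to 24.7 CPM. Of the 16 members at 10 CPM or more, 11 were highest in Control 4, where 11.97% of all genes were highest, and 12 were with the length trend removed, where the share of all genes was 17.3%. S100g (calbindin-D9k), with a short transcript, was also highest there, at 582 CPM against 355 to 545 CPM. The sodium pump subunit Fxyd2 was an exception, lowest in Control 1 and highest in Control 2.

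In the collecting duct the summed principal cell genes varied least of the nephron segments. Aqp3, the basolateral water channel, stood at 157 ± 15.1 CPM, and Hsd11b2, which shields the mineralocorticoid receptor from glucocorticoid, at 177 ± 11.99 CPM. The 6 principal cell members in the table, out of 18, summed to between 360.3 and 436 CPM, a CV of 6.83%. The highest sum was in Control 8, and Control 4 had 367 CPM. Of the 4 members at 10 CPM or more, 1 was highest and 1 lowest in Control 4 (11.97% and 29.0% of all genes). With the length trend removed these counts were 1 and 0 (17.3% and 20.0% of all genes). Intercalated cell genes varied more, from a sum of 571 CPM in Control 2 to 922 CPM in Control 4. Of its 11 members in the table, out of 22 listed, 5 were highest in Control 4 (11.97% of all genes). With the length trend removed, 7 were (17.3% of all genes). Slc4a1, the anion exchanger AE1 of acid-secreting cells, stood at 129 CPM in Control 4 and at 39.3 to 52.0 CPM in the 7 other mice. Slc4a1 is also the band 3 protein of red blood cells. The red cell genes described below had a median deviation of 0.03 in Control 4, where 1 of 6 at 10 CPM or more was highest, and their part in the Slc4a1 value was not tested. The proton pump subunit Atp6v1b1 (119 to 213 CPM) and the oxoglutarate receptor Oxgr1 (39.6 to 84.0 CPM) were also highest in Control 4, followed in each by Control 6. The chloride-bicarbonate exchanger Slc26a4 (pendrin), of the base-secreting cells, had a narrower range of 81.0 to 119 CPM and was also highest in Control 4.

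Glomerular and vascular genes set Control 2 apart. The 8 podocyte genes in the table, out of 19, summed to 247 CPM in Control 2, 355 CPM in Control 3 and 476 to 638 CPM in the other 6 mice, so that the highest sum was 2.59 times the lowest. Synpo, an actin-binding protein of the foot process, ranged from 44.8 CPM in Control 2 over 126 to 199 CPM in Control 6. Podxl, the sialoprotein of the foot process surface, ranged from 121 CPM in Control 2 over 225 to 292 CPM in Control 1. Of the 7 podocyte genes at 10 CPM or more, 6 were lowest in Control 2, where 18.3% of all genes were lowest. Podocyte transcripts on this list are long, and the list's median deviation in Control 2 was -0.91 as deposited and -0.70 with the length trend removed, with 6 of 7 still lowest (16.2% of all genes).

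Endothelial genes followed. The junction protein Cdh5 (VE-cadherin) ranged from 12.4 CPM in Control 2 over 35.96 to 47.1 CPM in Control 1, and the next lowest mouse had 25.3 CPM. The VEGF receptor Flt1 ranged from 23.5 CPM in Control 2 over 43.6 to 64.6 CPM in Control 1. Plvap, the diaphragm protein of fenestrated capillaries, was less spread, from 93.3 CPM in Control 2 over 118 to 163 CPM in Control 1. Of the 14 endothelial genes at 10 CPM or more, 10 were lowest in Control 2, where 18.3% of all genes were lowest, and 10 were highest in Control 1, where 11.9% of all genes were highest. With the length trend removed both counts were 11, against 16.2% of all genes lowest in Control 2 and 13.6% highest in Control 1. Mural and fibroblast genes were lowest in Control 3 for 6 of 11 members, where 6.48% of all genes were lowest, and for 8 of 11 with the length trend removed (9.29% of all genes). The collagen genes Col3a1 (12.3 to 41.997 CPM) and Col1a2 (24.4 to 58.5 CPM) were lowest in Control 3. Acta2, smooth muscle actin, ranged only from 21.4 CPM in Control 8 to 32.8 CPM in Control 4.

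Of the immune lists, that of macrophages, monocytes and dendritic cells had the highest summed level. Its 22 genes in the table, out of 31 listed, summed to between 405 CPM in Control 4 and 586 CPM in Control 7. Cd74, the invariant chain of MHC class II, was the most abundant at 148 ± 25.4 CPM. The complement subunits C1qa, C1qb and C1qc were at 11.8 ± 2.39, 10.9 ± 2.42 and 10.96 ± 2.33 CPM, and each was lowest in Control 8 (8.01, 6.63 and 6.63 CPM). Of the 11 members at 10 CPM or more, 7 were lowest in Control 8, where 6.81% of all genes were lowest, and 4 were with the length trend removed (7.63% of all genes). The lists for lymphocytes (5 of 29 members in the table), neutrophils (7 of 13) and the urothelium of the renal pelvis (4 of 13) summed to at most 7.75, 6.09 and 6.91 CPM in any mouse. Neutrophil S100a8 and S100a9 had means of 0.305 and 0.507 CPM, close to the level of 3 reads. The tubular injury markers Havcr1 (KIM-1) and Lcn2 (NGAL) ranged from 1.66 to 4.89 CPM and from 0.414 to 1.42 CPM.

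Summed red blood cell genes had a larger CV than the sums for the nephron segments, podocytes, vessels, mural cells or macrophages, although the highest sum was 2.54 times the lowest, close to the 2.59 of podocytes. Their 7 members in the table summed to between 1144 CPM in Control 5 and 2902 CPM in Control 2, a CV of 35.9%. The alpha-globin gene Hba-a1 had 488, 1420, 993 and 580.2 CPM in Controls 1 to 4 and 411, 371, 982 and 800.0 CPM in Controls 5 to 8. Alas2, the red cell form of the enzyme that starts heme synthesis, had 11.2, 33.6, 26.6 and 15.1 CPM and then 9.88, 9.62, 28.3 and 20.2 CPM. In both genes Controls 2, 3 and 7 were the 3 highest, and Controls 1, 5 and 6 were the 3 lowest. The beta-globin row Hbb-b1 was arranged differently, with 1274 CPM in Control 8 against 409 to 829 CPM in the others. Globin genes are near-identical copies, so the division of reads among them is uncertain. Summed, Hba-a1 and Hba-a2 ranged from 462 CPM in Control 6 to 1687 CPM in Control 2. The beta-globin rows Hbb-bs and Hbb-b1 summed to 531, 1104, 996 and 1172 CPM in Controls 1 to 4 and to 612, 947, 1317 and 1821 CPM in Controls 5 to 8. Controls 1 and 5 were the lowest mice in the beta sum, but Control 8 was the highest and Control 2 ranked below Controls 4 and 7, so the alpha and beta sums ordered the mice differently. How much blood the cortex of each mouse held was not given in the labels.

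**Figure D3:**
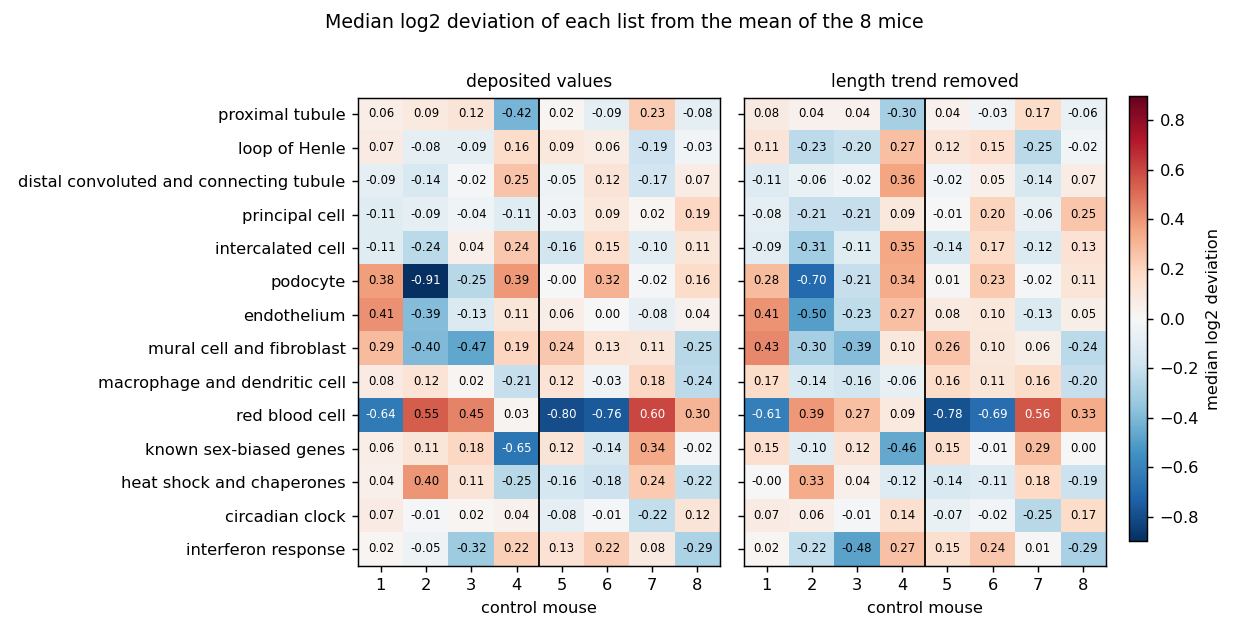
Median log2 deviation of each gene list from the mean of the 8 control mice (colour and printed number, rows) in each mouse (columns), for members at a mean of at least 10 CPM, as deposited (left) and with each mouse's length trend removed (right). The line separates Controls 1 to 4 from Controls 5 to 8. The lowest blocks on both sides include podocyte and endothelial genes in Control 2, mural and fibroblast genes in Control 3, proximal tubule and sex-biased genes in Control 4, and red blood cell genes in Controls 1, 5 and 6.

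Across the 3551 genes the typical spread was modest. The median SD of log2(CPM + 1) was 0.21 (5th to 95th percentile 0.10 to 0.43), and the median CV was 14.7%, against a median of 5.36% that counting error alone would give. A CV under 10% was seen for 643 genes (18.1%), and a CV over 50% for 17. The biological coefficient of variation, edgeR's estimate of spread beyond counting error, was 16.5% over the 8 mice and 16.2% within identifier ranges. It was 19.3% among Controls 1 to 4, which hold Controls 2, 3 and 4 of the axis above, and 12.3% among Controls 5 to 8. The steadiest genes included Gnb1, a G protein subunit, at 218 ± 5.82 CPM (CV 2.67%), and the adaptor Shc1, at 54.2 ± 1.51 CPM (CV 2.78%). The gene with the most CPM, before any division by length, was Gpx3, the secreted glutathione peroxidase made by the kidney, at 40866 ± 4868 CPM (CV 11.9%).

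The 40 most variable genes, chosen by that SD and so described without a test, were of several kinds. Among the most abundant were Rn45s, the ribosomal RNA precursor, and Lars2, the mitochondrial leucyl-tRNA synthetase. Rn45s had 6663, 40536, 25266 and 11854 CPM in Controls 1 to 4 and 5156, 4774, 9684 and 6519.8 CPM in Controls 5 to 8. Lars2 had 382, 3061, 1968 and 678 CPM and then 411, 353, 931 and 402 CPM. Control 2 and Control 3 were the highest in both, the same 2 mice that led the first principal component. Without these 2 genes that component still carried 52.2% of the variance. The poly(A) capture of these libraries is meant to leave ribosomal RNA out, and Rn45s was 4.05% of the effective library size in Control 2 and 0.477% in Control 6.

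A second kind was long noncoding RNA, and most of the named examples are known for staying in the nucleus. Neat1, the scaffold of paraspeckles, lies at chr19:5824708-5845480 (GRCm38). It had 108, 66.6, 53.7 and 230.3 CPM in Controls 1 to 4 and 417, 171, 64.0 and 370.2 CPM in Controls 5 to 8. Firre, on chromosome X, had 8.61, 3.24, 2.58 and 18.4 CPM and then 37.9, 20.0, 3.21 and 31.2 CPM. Snhg11, a small nucleolar RNA host gene, had 19.8, 7.46, 6.45 and 29.2 CPM and then 67.5, 31.4, 4.54 and 43.0 CPM. In all of these, Controls 5 and 8 were the 2 highest and Controls 2, 3 and 7 the 3 lowest. Malat1, the neighbour of Neat1 and a nuclear RNA named here after its values were seen, was also lowest in Control 2 (338 CPM) and Control 3 (393 CPM) but highest in Control 4 (1035 CPM). Controls 2, 3 and 7 were also the 3 highest in Hba-a1 and Alas2, but not in the beta-globin sum, which was highest in Control 8. These observations come from the same 8 libraries, and the link was not tested.

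Another kind was genes in which 1 mouse lay far below the others or was listed at 0. Amd2, an S-adenosylmethionine decarboxylase gene with a close relative, so that the assignment of its reads is uncertain, had 9.64 CPM in Control 4 and 75.9 to 94.1 CPM in the others. Gm7334, a predicted gene, had no read in Control 1 and 10.97 to 14.9 CPM in the others. Akr1b3 (aldose reductase) was first by SD, with no read in Control 6 and 1.65 to 29.8 CPM elsewhere. A value of 0 in a deposited table can also be a failed estimate, so Gm7334 and Akr1b3 are only listed at 0 in those mice.

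**Figure D4:**
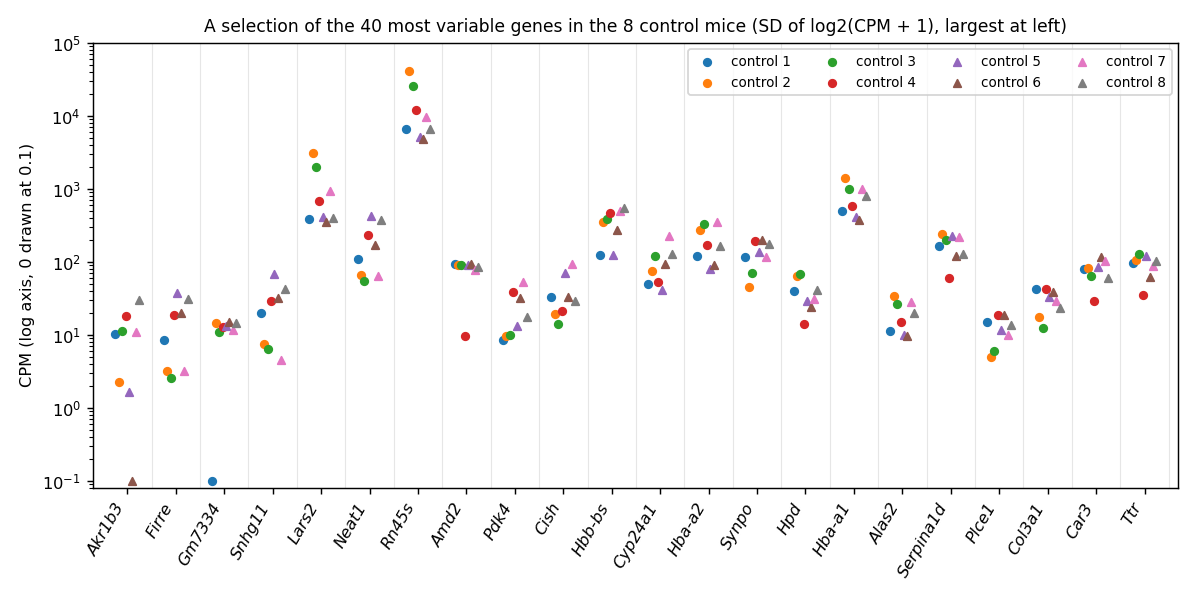
CPM (vertical log axis, 0 drawn at 0.1) in the 8 control mice of a selection of the 40 most variable genes (horizontal axis, largest SD at left). Each point is 1 mouse, circles for Controls 1 to 4 and triangles for Controls 5 to 8. Rn45s and Lars2 are highest in Control 2, the noncoding RNAs Firre, Snhg11 and Neat1 are highest in Control 5, and Amd2 and Gm7334 have 1 mouse far below the rest.

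Genes of metabolism and hormone response, taken from the lists, also differed between mice, and Control 4 was often the extreme mouse. On the list of genes with known male or female bias in mouse kidney, 12 of the 17 members at 10 CPM or more were lowest in Control 4 (29.0% of all genes), and 11 with the length trend removed (20.0% of all genes). Besides Kap these included the organic anion transporter Slco1a1, at 75.5 CPM in Control 4 against 115 to 236 CPM in the others. The cytochrome Cyp2d9 had 86.2 CPM in Control 4 against 103 to 267 CPM, and the cytochrome Cyp4b1 had 1725 CPM against 2938 to 4112 CPM. Cyp4a14 went the other way, the 1 member of the 17 that was highest in Control 4, at 59.0 CPM. Most proximal tubule genes at 10 CPM or more were also lowest in Control 4, and Kap, Slc7a13 and Slc7a12 are on both lists. A pair of secreted proteins outside both lists had the same low mouse. Azgp1 (zinc-alpha-2-glycoprotein) had 28.5 CPM in Control 4 against 69.3 to 109.8 CPM, and the antitrypsin gene Serpina1d had 59.0 CPM against 119.6 to 239.6 CPM. Sex-linked genes were not analysed here.

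Some members of the fasting and glucocorticoid lists also stood at the ends of the range in Control 4. On the fasting list, 4 of the 14 members at 10 CPM or more were highest in Control 4 and 3 were lowest, and on the glucocorticoid list 2 of 5 were highest and 0 lowest, where 11.97% of all genes were highest and 29.0% lowest. With the length trend removed, 5 of 14 fasting genes were highest and 1 lowest, and 2 of 5 glucocorticoid genes were highest and 0 lowest, against 17.3% and 20.0% of all genes. Other mice were also extreme on these lists. Control 6 was lowest in 6 of 14 fasting genes before and after the length trend was removed (13.4% and 10.1% of all genes). Controls 2 and 7 were each highest in 4 fasting genes as deposited (24.8% and 13.4% of all genes). Control 7 was lowest in 2 of 5 glucocorticoid genes (7.10% of all genes), and in 4 with the length trend removed (12.1% of all genes). The metallothioneins Mt1 and Mt2, small metal-binding proteins induced by metals and glucocorticoid, were highest in Control 4. Mt2 had 26.0, 44.1, 35.1 and 78.7 CPM in Controls 1 to 4 and 35.2, 29.7, 20.3 and 29.1 CPM in Controls 5 to 8. Mt1 had 74.5, 126, 106 and 147 CPM and then 95.2, 66.7, 66.8 and 86.0 CPM. The fatty acid hydroxylase Cyp4a14 had 59.0 CPM in Control 4 and 19.4 to 46.9 CPM in the others. Pdk4, which holds back glucose oxidation in fasting, was highest in Control 7 (52.4 CPM), followed by Control 4 (38.3 CPM) and Control 6 (32.1 CPM), with the other 5 mice at 8.61 to 17.4 CPM. Cpt1a, another target of the fasting regulator PPAR-alpha, was nearly flat at a CV of 4.81%. When the mice last ate was not given in the labels.

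The promoters of Mt1 and Mt2 are shown because the genes are neighbours that were highest in the same mouse. Each window runs from 250 bases before to 50 after the RefSeq gene start (GRCm38.p6), at chr8:94178839-94179138 and chr8:94172368-94172667, both on the plus strand. Capitals mark TGCNCNC, a loose form of the metal response element core TGCRCNC (R is A or G). It was searched on both strands, and a match on the other strand appears as its reverse complement.
Mt1: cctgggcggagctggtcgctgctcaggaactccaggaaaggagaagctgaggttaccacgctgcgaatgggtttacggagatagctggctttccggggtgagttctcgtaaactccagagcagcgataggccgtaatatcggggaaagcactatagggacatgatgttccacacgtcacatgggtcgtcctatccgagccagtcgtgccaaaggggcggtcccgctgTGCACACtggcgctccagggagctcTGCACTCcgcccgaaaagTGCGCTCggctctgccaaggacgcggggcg
Mt2: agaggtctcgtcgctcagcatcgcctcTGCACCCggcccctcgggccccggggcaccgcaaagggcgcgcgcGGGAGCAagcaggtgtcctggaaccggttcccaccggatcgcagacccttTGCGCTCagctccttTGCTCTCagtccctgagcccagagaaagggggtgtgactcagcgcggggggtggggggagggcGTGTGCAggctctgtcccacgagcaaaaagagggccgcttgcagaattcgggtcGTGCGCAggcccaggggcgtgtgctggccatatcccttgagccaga
Mt1 held 3 matches to the loose form and Mt2 held 6, of which GGGAGCA and TGCTCTC match the loose form only. Of all 32851 promoter windows of this length, 51.0% held at least 1 match, 7.10% at least 3 and 0.225% at least 6.

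Among circadian clock genes, some members of the 2 arms of the clock had opposite extremes in Control 7. The clock is a loop in which Arntl (BMAL1), with Clock or its relative Npas2, drives genes that include the Per genes, Dbp, Ciart and Nr1d1, and in which NR1D1 in turn represses Arntl. Dbp, an output of the loop, had 211, 303, 248 and 207 CPM in Controls 1 to 4 and 213, 177, 149 and 229.6 CPM in Controls 5 to 8. Arntl was close to the floor, with 0.538, 1.27, 1.16 and 0.575 CPM and then 2.96, 1.12, 4.27 and 0.967 CPM. Npas2 had 1.08, 0.563, 1.29 and 0.431 CPM and then 2.31, 2.89, 4.01 and 1.38 CPM. Control 7 had the most Arntl and Npas2 and the least Dbp, Ciart (8.42 CPM, others up to 17.1) and Per3 (18.2 CPM, others up to 42.1). Some other members had their extremes in other mice. Clock was lowest in Control 3 (48.1 CPM) and highest in Control 4 (78.1 CPM), and Per1 was lowest in Control 2 (19.6 CPM) and highest in Control 8 (48.6 CPM). Nr1d1 was steadier, at 109 ± 13.4 CPM. Of the 12 clock genes at 10 CPM or more, 5 were lowest in Control 7, where 7.10% of all genes were lowest, and 7 with the length trend removed (12.1% of all genes). The hour at which each mouse was killed was not given in the labels.

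A promoter from each arm is shown, again from RefSeq (GRCm38.p6), each chosen after the search because it holds the motif of its arm. The Ciart window lies at chr3:95882179-95882478 on the minus strand, and its capitals mark the E-box CACGTG, the site that BMAL1 pairs bind. The second of 2 annotated Arntl windows lies at chr7:113207261-113207560 on the plus strand, and its capitals mark AGGTCA, the core motif shared by ROR and NR1D1 factors.
Ciart: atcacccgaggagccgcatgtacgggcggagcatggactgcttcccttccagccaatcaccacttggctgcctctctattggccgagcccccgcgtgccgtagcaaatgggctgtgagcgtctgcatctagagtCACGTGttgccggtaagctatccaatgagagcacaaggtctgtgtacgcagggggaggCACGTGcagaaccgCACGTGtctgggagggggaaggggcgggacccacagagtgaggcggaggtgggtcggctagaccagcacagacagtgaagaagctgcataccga
Arntl: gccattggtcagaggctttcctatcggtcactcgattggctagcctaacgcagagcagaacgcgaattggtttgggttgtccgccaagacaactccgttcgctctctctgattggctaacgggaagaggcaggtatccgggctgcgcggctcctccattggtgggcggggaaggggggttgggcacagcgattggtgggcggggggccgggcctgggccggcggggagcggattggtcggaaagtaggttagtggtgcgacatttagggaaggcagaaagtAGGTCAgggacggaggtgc
Ciart held 3 E-boxes, at 116, 58 and 44 bases before the gene start. An E-box was present in 7.15% of all windows and 3 or more in 0.0883%. The Arntl window held 1 such motif, which was present in 16.3% of all windows, and the first Arntl window held none. Of the 14 clock genes with a promoter in the RefSeq table, 4 held an E-box (Per1, Cry1, Tef and Ciart) and 5 held AGGTCA (Arntl, Clock, Per1, Nr1d2 and Nfil3). A gene was counted if any of its windows held the motif, whereas the shares of all windows are per window.

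Single mice were set apart by other genes. Control 7 had 225 CPM of Cyp24a1, the enzyme that inactivates vitamin D hormone, and the others had 40.8 to 128 CPM. It also had 39.9 CPM of the adaptor Sh3bp2 against 10.2 to 22.4 CPM. Cish, a feedback inhibitor of cytokine signalling, was highest in Control 7 (93.9 CPM) and Control 5 (69.8 CPM), with the others at 13.9 to 33.0 CPM. Control 1 had 42.8 CPM of the matrix proteoglycan Ogn against 16.99 to 22.1 CPM. Control 6 had the least Scd1, the stearoyl-CoA desaturase, at 117 CPM against 159 to 254 CPM. Heat shock genes were highest in Control 2 for 6 of 9 members at 10 CPM or more, where 24.8% of all genes were highest, and for 6 of 9 with the length trend removed (20.3% of all genes). Hspa8, the constitutive chaperone HSC70, ranged from 2004 CPM in Control 6 over 2758 to 4277 CPM in Control 2.

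The controls of the 2 identifier ranges were then compared, 4 mice against 4. By limma on log2(CPM + 1), none of 5330 genes at a mean of at least 1 CPM passed a Benjamini-Hochberg adjusted p of 0.05 in either direction (background 0% called), and the smallest adjusted p was 0.631. At an unadjusted limma p under 0.05 there were 205 genes higher in Controls 5 to 8 (3.85%) and 173 lower (3.25%). All 4 values lay above those of Controls 1 to 4 for 101 genes (1.89%) and below them for 108 genes (2.03%). The 95% interval of a gene's difference, not adjusted for the number of genes, reached a median of 0.35 to either side on the log2 scale. Smaller differences were mostly not detectable with these mice. Larger ones, such as that of Rbm3 below, also failed the adjusted threshold, so 0.35 is not a detection limit. The median difference of all genes was -0.00. By edgeR on the recovered reads no gene passed either, with 383 at an unadjusted p under 0.05. DESeq2 called 2 genes, both lower in Controls 5 to 8, Rbm3 and Zbtb16 (adjusted p = 0.0264 for each).

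Some of the genes with the smallest limma p, and those called under another setting, follow with their values. Rbm3, a cold-inducible RNA-binding protein at chrX:8138975-8145880 (GRCm38), had 130, 169, 159 and 116 CPM in Controls 1 to 4 and 106, 89.2, 86.2 and 78.5 CPM in Controls 5 to 8. The groups did not overlap, and the difference was -0.66 on the log2 scale (SE 0.14, limma adjusted p = 0.631). Zbtb16 (PLZF), a transcription factor known to respond to glucocorticoid, had 13.99, 2.11, 5.03 and 12.4 CPM and then 1.81, 1.44, 1.74 and 2.49 CPM. Its groups overlapped, since Control 2 lay below Control 8. Without Control 2 and Control 3, left out after the data were seen, its difference was -2.31 with a limma adjusted p of 3.79e-04. It was the only gene called in that fit. Those 2 mice held the lower Zbtb16 values of their range, so leaving them out removed the overlap, and no weight can be put on that p-value. Cyp2a5, a cytochrome named here after its values were seen, had 253, 240.5, 259 and 146 CPM in Controls 1 to 4 and 159, 136, 134 and 156 CPM in Controls 5 to 8. Control 4 lay within the range of Controls 5 to 8. Without it, Cyp2a5 was the only gene called by limma (-0.78, adjusted p = 0.0378), and with all 8 mice its difference was -0.59 (limma adjusted p = 0.668).

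Among genes without overlap that were higher in Controls 5 to 8 were Npas2, with the values above (0.96, SE 0.25), and Nav2, a neuron navigator protein, at 16.6 to 30.3 CPM and then 32.5 to 39.4 CPM. Il34, a ligand of the macrophage receptor CSF1R, had 7.77 to 15.6 CPM and then 16.7 to 24.4 CPM. Lower without overlap were the glutathione transferase Gsta4 (38.2 to 54.8 CPM and then 29.8 to 33.4 CPM) and the inducible chaperone Hspa1b (14.4 to 27.2 CPM and then 10.1 to 13.6 CPM). Hspa1b has a near-identical copy, Hspa1a, and the sum of both overlapped between the ranges (25.7 to 43.4 CPM and then 19.8 to 26.5 CPM). On the immediate early list, 3 of 20 tested genes were lower without overlap, against 2.03% of all genes. They were Junb, Myc and Gadd45b, and Fos and Atf3 were under 1 CPM and not tested. On the proximal tubule list, 2 of 44 genes were at an unadjusted limma p under 0.05 higher (3.85% of all genes) and 6 lower (3.25% of all genes), and none of the loop, distal, podocyte, endothelial, macrophage or red cell genes was in either direction. Exact two-sided permutation tests were run on 10 single values, with a smallest possible p of 0.0286. The lowest was 0.0571 for Rn45s (adjusted p = 0.400), and for Kap it was 0.829.

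**Figure D5:**
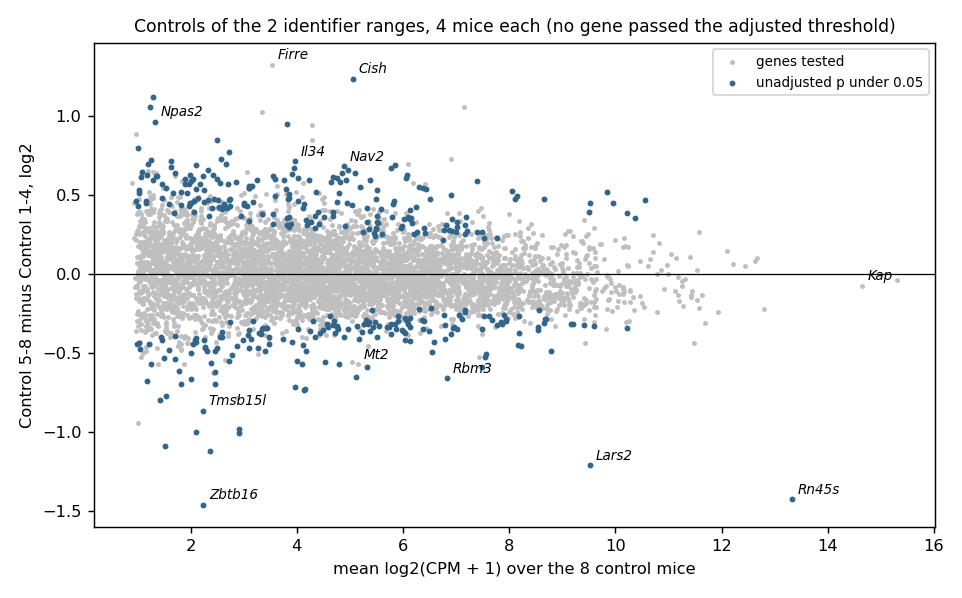
Difference between the controls of the 2 identifier ranges (Controls 5 to 8 minus Controls 1 to 4, log2 scale, vertical axis) against the mean log2(CPM + 1) of the 8 mice (horizontal axis) for 5330 genes. Blue points have an unadjusted limma p under 0.05, and no gene passed the adjusted threshold. Rn45s, Lars2 and Zbtb16 lie lowest and Firre and Cish highest.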

How the data were processed

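The authors deposited 1 table of normalized CPM values for 20 libraries. Per the submitters' processing notes, FastQC, Bowtie2 2.1.0, RSEM 1.2.15 and edgeR were used with GRCm38/mm10. The role of each and the annotation are not given in the sources used here. Columns were matched to mice by the identifier in each title. In the 8 control columns 100% of values were whole multiples of 1 step (tolerance 0.1), so whole reads were recovered as value over step. Effective library sizes were 6071984 to 7748428. The labels name no molecular identifiers, so floors cover counting error only.

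Spread was the SD of log2(CPM + 1). The 2 ranges were compared with limma 3.58.1 in R 4.3.3 on log2(CPM + 1), pseudocount 1, with a trended prior, over the 5330 genes at a mean of at least 1 CPM, which left out 693. Fold changes on this scale understate those of low genes. As count tests on the recovered reads, edgeR 4.0.16 (quasi-likelihood) called 0 genes and DESeq2 1.42.0 called 2. P-values measure the spread between mice. Transcript lengths are the longest GENCODE M21 transcript of each gene (99.2% of the 3551 genes matched), and a lowess trend (span 0.5) over length was removed per mouse where stated. The limma fit was checked on simulated counts drawn independently for each gene, which lack the shared axis described above. The edgeR and DESeq2 tests were not checked in this way. Principal components came from a singular value decomposition in numpy 2.4.6, Python 3.11.15, and the lowess trend from statsmodels 0.14.6.

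The members and lists were chosen with earlier results of these data known. Members were matched by the listed symbol, so a gene under an older symbol, such as Gpr116 for Adgrf5, counts as absent from its list. Unless stated otherwise, named genes are list members, the 40 most and 10 least variable, the 10 most abundant, the 15 with the smallest limma p in each direction, and for each mouse the 3 genes farthest from the nearest other mouse. Of the 6023 rows, 13 symbols look like dates, and 1 symbol is on 2 rows. Some genes named by this rule are not reported here.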

Additional observations from a re-analysis of the deposited data

Results flagged for a closer look

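Among 144 values screened (the genes of the text, some further named genes and the list sums over the 8 controls), 12 had 1 mouse whose gap to its nearest neighbour was a larger share of the whole range than Dixon's 95% critical value for 8 samples. Chance flags about 1 group in 20, and 4.08% of the 3551 genes at 10 CPM or more met the same limit. The comparison with these shares is not a fair one, since the genes screened were partly chosen for their spread or for 1 mouse far from the others, as were Gm7334, Amd2, Slc4a1, Ogn, Sh3bp2 and Cyp24a1. Control 4 was the mouse in 7 of them. The gap as a share of the range was 0.676 for Trpm6, 0.584 for Slc8a1, 0.549 for Klhl3 and 0.540 for the summed distal convoluted and connecting tubule list, all highest in Control 4. For Slc4a1 it was 0.859 and for Mt2 0.593, also highest in Control 4. For Amd2 it was 0.784, lowest in Control 4. Control 7 was highest in Cyp24a1 (0.529) and Sh3bp2 (0.590). Control 1 was lowest in Gm7334 (0.735), which had no read there, and highest in Ogn (0.803). Control 2 was lowest in Top2a (0.565), at 0.845 CPM against 2.56 CPM in the next mouse. The causes were not tested.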

How the results depend on the processing

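Between the controls of the 2 ranges, 0 genes passed in the analysis as reported. DESeq2 called 2 genes, and limma without Control 2 and Control 3, chosen after seeing the data, called 1. Leaving out each mouse in turn gave 0 to 1 genes. The count at an unadjusted p under 0.05, which was 378, was 238 at a minimum mean of 10 CPM, where fewer genes were tested. Leaving out each mouse in turn gave 224 to 746, with 746 without Control 4, 224 without Control 2, 227 without Control 6 and 241 without Control 8. All 14 differences followed for named genes kept their direction in all 275 values under other settings. Of the 40 most variable genes, 14 remained at a minimum mean of 50 CPM, since the others lie below it, and 31 to 38 remained when each mouse was left out. The biological coefficient of variation, 16.5%, ranged from 15.4% to 17.2% when each mouse was left out, and within ranges from 14.1% to 17.3%. Without its most abundant member the ratio of the highest to the lowest summed CPM went from 2.25 to 3.56 for the other-tissue list and from 2.76 to 24.4 for the 3-gene osmolyte list, which then rests on Akr1b3 and Slc14a2. Scaling to the 75th percentile moved the median gene of Control 4, the most of any mouse under 3 scalings, by 0.0976 on the log2 scale. With the length trend removed, chosen after seeing the data, 0 genes passed between the ranges. No paired analysis was possible because Controls 1 to 4 and Controls 5 to 8 share no replicate number. Depth, at 3580410 to 5395629 reads in the table, leaves genes near 1 CPM with few reads each.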

Other observations

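Sums of other gene groups of the baseline were as follows. Cholesterol synthesis and uptake genes (12 of 21 listed in the table) summed to between 1219 CPM in Control 4 and 1552 CPM in Control 1, a CV of 8.82%. Interferon response genes (19 of 34) summed to between 343 CPM in Control 8 and 421 CPM in Control 6, a CV of 7.67%. That sum rests largely on H2-D1, an MHC class I heavy chain at 212 CPM with a CV of 4.66%. The 9 members of the interferon list at 10 CPM or more had a median SD of log2(CPM + 1) of 0.32, above the 0.21 of all genes. Cell cycle genes (13 of 28) were low, the most abundant being Pcna at 47.7 CPM, and Top2a and Cdk1 had means of 2.87 and 1.58 CPM. The vitamin D and mineral list (9 of 12) summed to between 8731 CPM in Control 4 and 11443 CPM in Control 7.

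Within groups of 4 mice the median SD of log2(CPM + 1), over genes at a mean of at least 10 CPM in the group, was 0.23 among Controls 1 to 4 and 0.15 among Controls 5 to 8. It was 0.15 in ischemia-reperfusion, 0.18 in rhabdomyolysis and 0.18 in cisplatin. The difference between these values was not tested.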
